A study of Mus musculus with 12 samples.

Results

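Mitochondrial complex I genes are the nuclear genes named Ndufa, Ndufab, Ndufaf, Ndufb, Ndufc, Ndufs and Ndufv. All protein-coding genes with these symbol stems on chromosomes 1 to 19 were taken, which gave 47 of 20558 protein-coding genes. By role they comprise 7 core subunits, 30 accessory subunits, 8 assembly factors and 2 genes, Ndufa4 and Ndufa4l2, that carry the family name but are assigned to complex IV. Roles were assigned by symbol, so the accessory subunits include Ndufb4b (0.471 kb long) and Ndufb4c (0.485 kb), beside Ndufb4 (6.77 kb). The question was where the 47 genes lie relative to the nuclear lamina in early embryos, and where their position differs when Rif1 is depleted.

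Lamina-associated domains (LADs) had been mapped by DamID with a Dam-LaminB1 fusion, an adenine methyltransferase that marks DNA near the lamina. The 4 groups were siRif1 4-cell, siControl 4-cell, siRif1 8-cell and siControl 8-cell embryos, all of the cross (C57BL/6J xCBA) x DBA/2J. Every embryo had received siRNA (20 µM) as a zygote and, at the late 2-cell stage, mRNA for the auxin-degradable fusion (AID-Dam-LaminB1, 20 ng/µL), for Tir1 (250 ng/µL) and for membrane-eGFP (100 ng/µL). Culture in 500 µM auxin ended at 54 hours after hCG for 4-cell embryos, collected at 60 to 62 hours, and at 66 hours for 8-cell embryos, collected at 72 to 74 hours. Each group had 3 replicates of 16 to 24 pooled blastomeres. The deposited data are 1 LAD list per group, made from all replicates, so no value below has a replicate error or a known read depth, and no test between groups was possible. The lists hold no RNA or protein level, so neither the depletion of Rif1 nor the identity of the cells could be checked in them.

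Complex I is the first enzyme of the mitochondrial respiratory chain. It takes electrons from NADH, passes them to ubiquinone and pumps protons across the inner membrane. Its core subunits carry out catalysis, its accessory subunits stabilise the complex, and its assembly factors help to build it without staying in the finished enzyme. LADs are large, mostly gene-poor and weakly transcribed regions at the nuclear rim, and RIF1 is a chromatin protein known for its part in replication timing.

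Genes were called LAD where their midpoint lay in an interval of the list. Of the 47 complex I genes, 32 (68.1%) were outside LADs in all 4 lists, 11 (23.4%) differed between lists and 4 (8.51%) were LAD in all 4. Over all protein-coding genes these shares were 58.3%, 32.2% and 9.47%. LAD in at least 1 list were 15 of the 47 (31.9%), beside 41.7% of all protein-coding genes. The 4 constant LAD genes were all assembly factors, Ndufaf2, Ndufaf4, Ndufaf5 and Ndufaf7. None of the 37 subunit genes was LAD in every list, though Ndufb6 was when LADs were extended by 100 kb at both ends. Of the 37, 10 (27.0%) differed between lists.

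The number of complex I genes in LADs was 6 (12.8%) in siRif1 4-cell, 12 (25.5%) in siControl 4-cell, 11 (23.4%) in siRif1 8-cell and 6 (12.8%) in siControl 8-cell embryos. The corresponding shares of all protein-coding genes were nearly level, at 23.5%, 24.2%, 23.8% and 25.8%. For the 37 subunits alone the numbers were 1, 7, 6 and 2 in the same order, whereas 4 of the 8 assembly factors were LAD in each list. The siControl 4-cell list had the fewest LADs (601, covering 785.7 Mb), and the other lists had 644 (1038.4 Mb, siRif1 4-cell), 738 (1023.5 Mb, siRif1 8-cell) and 746 (1066.7 Mb, siControl 8-cell). The list with the least LAD sequence thus held the most complex I genes.

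**Figure D1:**
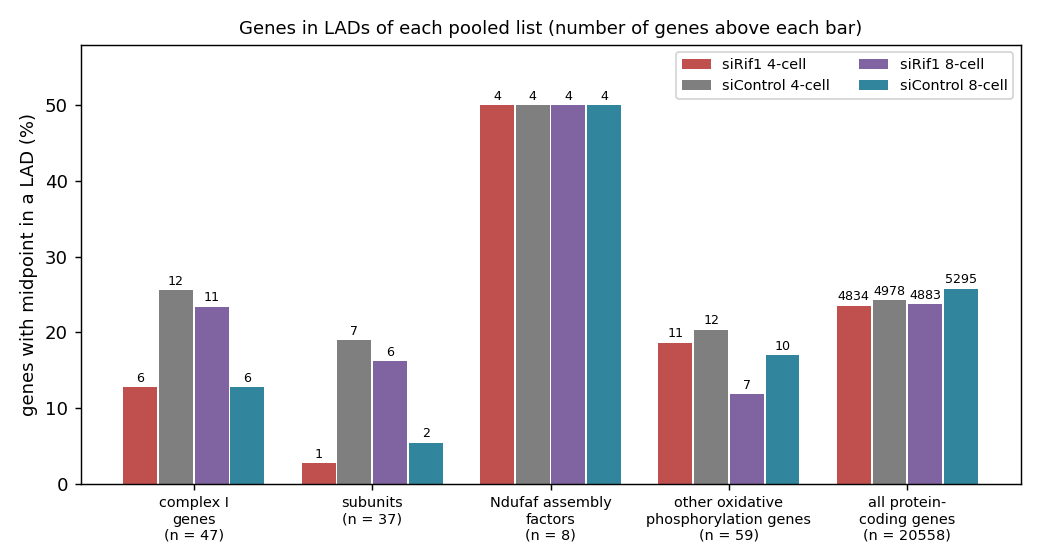
Percent of genes with their midpoint in a LAD (y axis) in the siRif1 4-cell, siControl 4-cell, siRif1 8-cell and siControl 8-cell lists, for complex I genes, their subunits, Ndufaf assembly factors, other oxidative phosphorylation genes and all protein-coding genes, with the number of genes above each bar. Subunits numbered 1, 7, 6 and 2 in the 4 lists, while assembly factors stayed at 4 and all protein-coding genes lay between 23.5% and 25.8%.

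The core subunits hold the flavin, the iron-sulfur clusters and the quinone site. Of the 7, 6 were outside LADs in all lists, among them Ndufv1, Ndufs7 and Ndufs8. Ndufv1 and Ndufs8, whose products bind NADH with flavin and carry iron-sulfur clusters, lie 99.3 kb apart on chromosome 19 and so share a location. Ndufs8 was 7089.2 kb from the nearest LAD border in siRif1 4-cell, 6989.2 kb in siControl 4-cell, 4489.2 kb in siRif1 8-cell and 3589.2 kb in siControl 8-cell embryos. With Ndufv1 (3489.9 kb in its nearest list) and the accessory gene Ndufa6 (2552.2 kb in its nearest list), it was among the 3 constantly outside genes farthest from any border. No list had a LAD on the lower-coordinate side of Ndufs8 and Ndufv1, so their distances run to the higher side only.

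Ndufs1, for the largest core subunit, was the 1 core gene that differed. It lies on chromosome 1 (63143592 to 63176822). Its midpoint was 239.8 kb outside a LAD in siRif1 4-cell embryos, against 939.8 kb inside one in siControl 4-cell embryos. At the 8-cell stage it was 1139.8 kb inside a LAD in siRif1 embryos, against 39.8 kb outside one in siControl embryos. The LAD around it was 3.8 Mb long at the 4-cell stage (siControl list) and 3.2 Mb long at the 8-cell stage (siRif1 list), and the other lists each left a gap of 0.9 Mb there. The siControl 8-cell value lies within 1 step of the 100 kb grid of the lists.

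The stretch with the same pattern as Ndufs1 spanned 700.0 kb (chromosome 1, 62500001 to 63200000). It held 3 further protein-coding genes, the semaphorin co-receptor gene Nrp2, the chromatin remodelling gene Ino80d and the translation elongation factor gene Eef1b2. On the higher-coordinate side the next neighbours, Gpr1 and Zdbf2, were also LAD in siControl 8-cell embryos, and on the lower side Pard3b was LAD in all 4 lists.

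Ndufab1, the gene of the mitochondrial acyl carrier protein, which is also an accessory subunit, had the same pattern as Ndufs1. It lies on chromosome 7 (122086815 to 122101848). Its midpoint was 394.3 kb outside in siRif1 4-cell embryos, against 2005.7 kb inside in siControl 4-cell embryos, and 2894.3 kb inside in siRif1 8-cell embryos, against 205.7 kb outside in siControl 8-cell embryos. The LAD that held it was 5.2 Mb long at the 4-cell stage (siControl list) and 6.2 Mb long at the 8-cell stage (siRif1 list). All 6 nearest neighbours, Gga2, Ears2, Ubfd1, Palb2, Dctn5 and the mitotic kinase gene Plk1, shared the pattern, and the stretch (121700001 to 122300000, 600.0 kb) held 12 protein-coding genes. The pattern of LAD in siControl 4-cell and siRif1 8-cell embryos alone was seen for 188 of all protein-coding genes (0.914%).

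**Figure D2:**
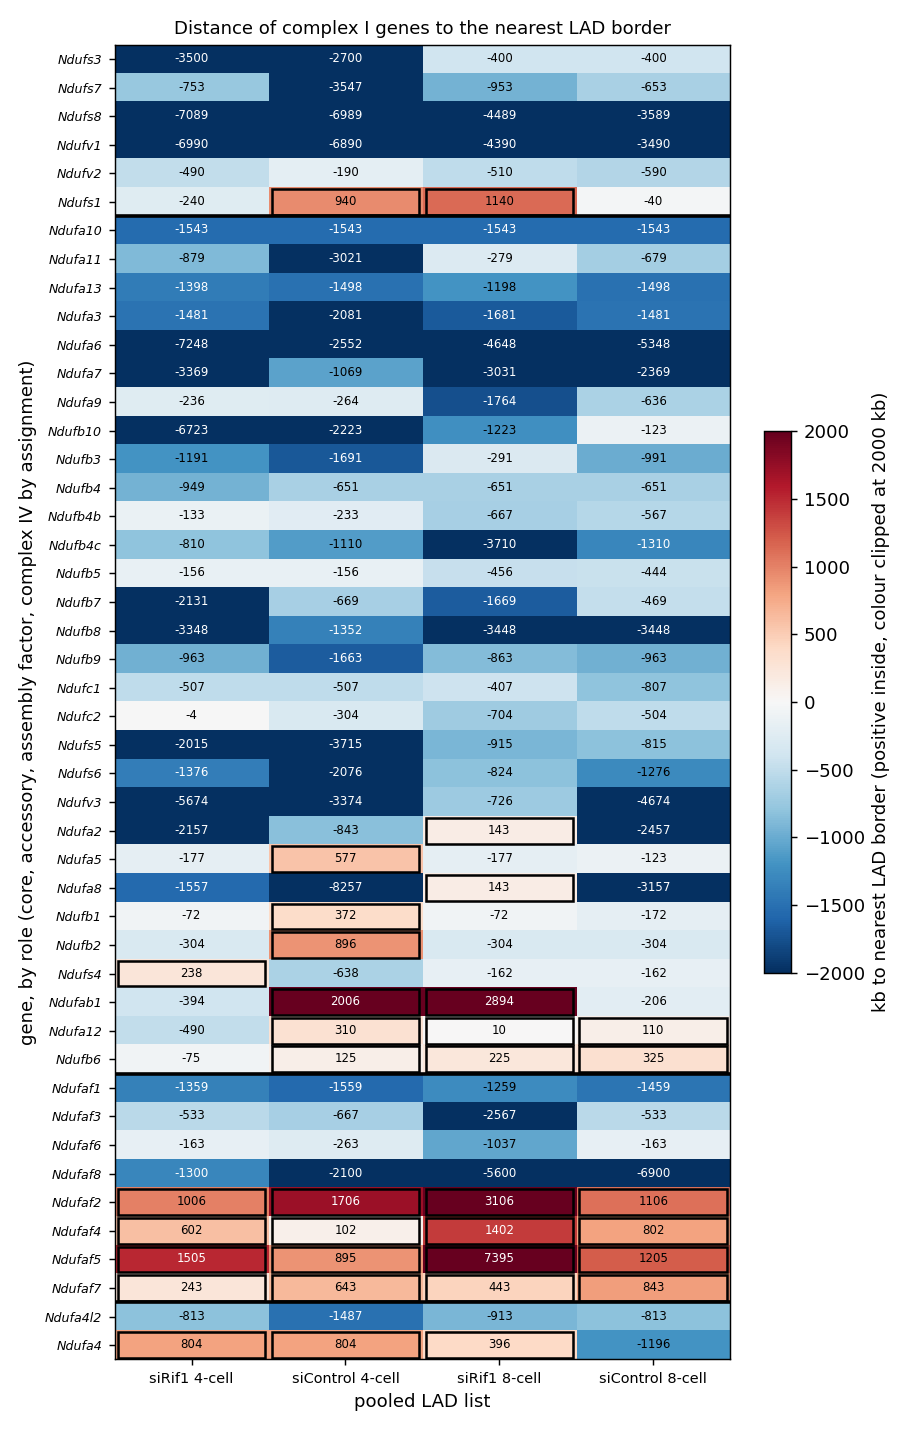
Signed distance in kb from the midpoint of 46 of the genes (rows, grouped by role) to the nearest LAD border in the siRif1 4-cell, siControl 4-cell, siRif1 8-cell and siControl 8-cell lists (columns), positive inside a LAD, with LAD cells outlined and colour clipped at 2000 kb. Among subunits the outlined cells fall mostly in the siControl 4-cell (7) and siRif1 8-cell (6) columns, and the 4 assembly factors at the bottom of their block are outlined in all columns.

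At the 4-cell stage, siRif1 against siControl, 8 complex I genes differed, and for most of these the LAD was in the siControl list. In siRif1 alone there was 1 gene, Ndufs4 (2.13%, all protein-coding genes 7.22%), and in siControl alone there were 7 (14.9%, all protein-coding genes 7.92%). The 7 were Ndufs1, Ndufab1, Ndufa5, Ndufa12, Ndufb1, Ndufb2 and Ndufb6, all of them subunit genes. They lay on 6 chromosomes, and the pair on chromosome 6, Ndufa5 and Ndufb2, sat in separate siControl LADs of 3.4 and 5.1 Mb. LAD in both lists were 5 members (10.6%, all protein-coding genes 16.3%), and 34 were in neither (72.3%, all protein-coding genes 68.6%).

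Ndufa5, Ndufb1 and Ndufb2 were LAD in siControl 4-cell embryos and in no other list, a pattern of 4.87% of all protein-coding genes. Ndufb2, for a membrane-arm accessory subunit, was 303.8 kb outside in siRif1 4-cell embryos, against 896.2 kb inside in siControl 4-cell embryos, and 303.8 kb outside in both 8-cell lists. The 1200.0 kb stretch around it (chromosome 6, 38700001 to 39900000) held 12 protein-coding genes with the same pattern, among them the kinase gene Braf, Adck2, Dennd2a, Mkrn1 and the mitochondrial ribosomal gene Mrps33. Of the 6 nearest neighbours only Tmem178b differed, being LAD in all 4 lists.

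Ndufa5, for a matrix-arm accessory subunit, was 176.8 kb outside in siRif1 4-cell embryos, against 576.8 kb inside in siControl 4-cell embryos. In the 8-cell lists it was 176.8 kb (siRif1) and 123.2 kb (siControl) outside. Its stretch of 300.0 kb (chromosome 6, 24400001 to 24700000) also held Iqub, Asb15, the muscle actin filament gene Lmod2 and Wasl, the gene of an activator of actin nucleation. The gap around Ndufa5 in the siRif1 4-cell list was 0.4 Mb long, so the LADs on both sides were close.

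Ndufb1 was 71.9 kb outside in siRif1 4-cell embryos, against 371.9 kb inside in siControl 4-cell embryos. In the 8-cell lists it was 71.9 kb (siRif1) and 171.9 kb (siControl) outside. Atxn3, a deubiquitinase gene, the mRNA cleavage factor gene Cpsf2, Slc24a4 and Rin3 shared its stretch of 500.0 kb (chromosome 12, 101900001 to 102400000). Both siRif1 values of Ndufb1 lie within 1 grid step of a border.

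Ndufa12 and Ndufb6 were LAD in every list but siRif1 4-cell, a pattern of 1.14% of all protein-coding genes. Ndufa12, for an accessory subunit of the matrix arm, was 489.8 kb outside in siRif1 4-cell and 310.2 kb inside in siControl 4-cell embryos. In 8-cell embryos it was 10.2 kb inside in siRif1 and 110.2 kb inside in siControl embryos. The siRif1 8-cell LAD begins inside the gene, so its state there depends on how a gene is placed. Tmcc3 was the 1 nearest neighbour of 6 with its pattern.

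Ndufb6 was 75.0 kb outside in siRif1 4-cell embryos, against 125.0 kb inside in siControl 4-cell embryos, with 225.0 kb (siRif1) and 325.0 kb (siControl) inside in the 8-cell lists. Its stretch was the shortest of the 11 genes that differed (chromosome 4, 40200001 to 40400000). It also held Ddx58, the gene of the RNA sensor RIG-I, the ubiquitin ligase gene Topors, and Smim27. The siRif1 4-cell value of Ndufb6 lies within 1 grid step of a border.

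Ndufs4 went the other way. It encodes an accessory subunit next to the NADH-binding module, and its loss in mice gives a model of Leigh syndrome. The gene (chromosome 13, 114287795 to 114388094) was 237.9 kb inside a LAD in siRif1 4-cell embryos, against 637.9 kb outside in siControl 4-cell embryos, and 162.1 kb outside in both 8-cell lists. The siRif1 4-cell LAD was 1.2 Mb long. Fst, the gene of the activin antagonist follistatin, shared its stretch (114100001 to 114500000), and farther out Mocs2 and the integrin gene Itga2 were LAD in every list but siControl 4-cell. At 100.3 kb Ndufs4 is the second longest of the 47 genes, after Ndufaf2.

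**Figure D3:**
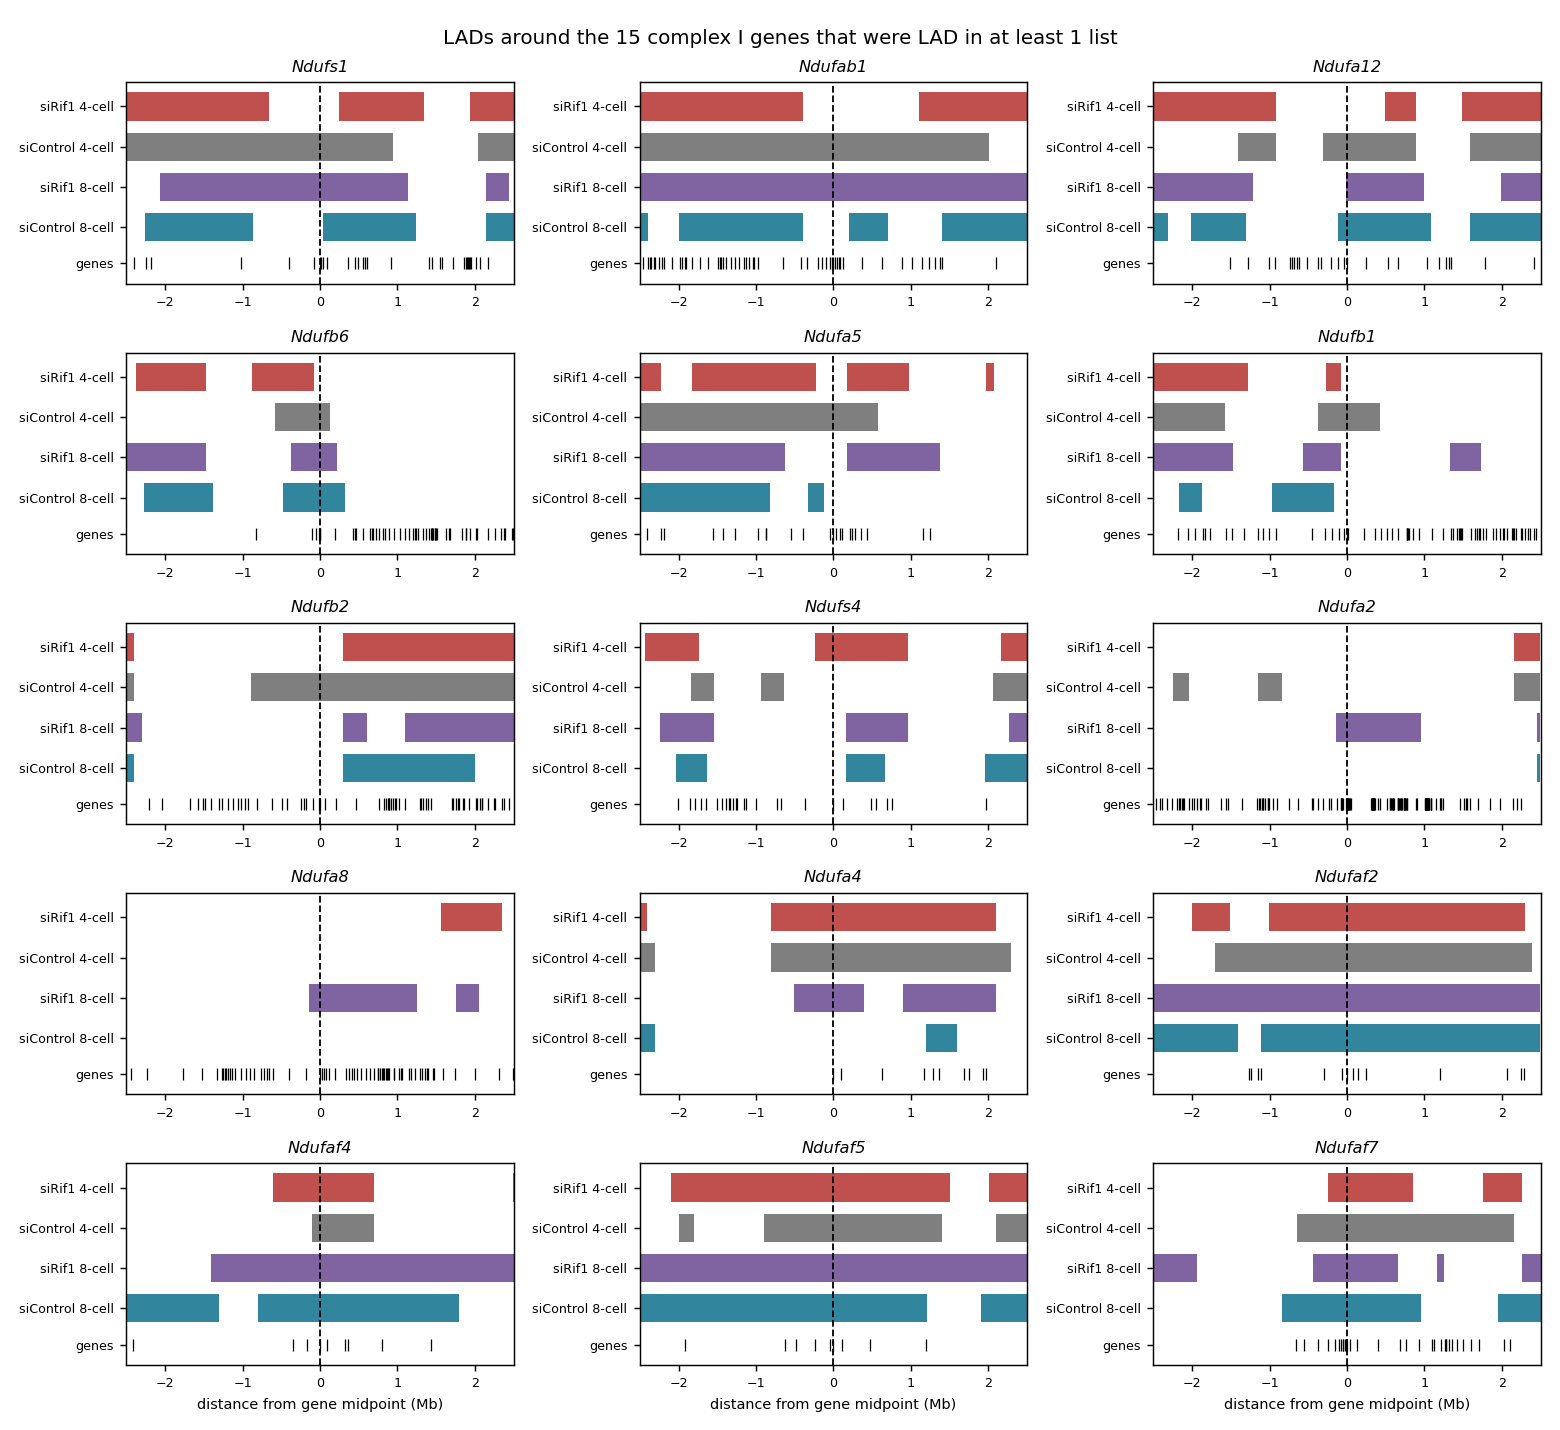
LADs (bars) of the siRif1 4-cell, siControl 4-cell, siRif1 8-cell and siControl 8-cell lists, top to bottom in each panel, against the distance in Mb from the midpoint (dashed line) of the 15 complex I genes that were LAD in at least 1 list, with ticks for protein-coding genes. Around Ndufs1 and Ndufab1 the siControl 4-cell and siRif1 8-cell bars cross the midpoint while the other lists leave gaps, and around the Ndufaf genes all 4 bars cross it.

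At the 8-cell stage the direction was opposite. In siRif1 embryos alone 5 complex I genes were LAD (10.6%, all protein-coding genes 7.18%), namely Ndufs1, Ndufab1, Ndufa2, Ndufa8 and Ndufa4. In siControl embryos alone there was none, beside 9.18% of all protein-coding genes. Ndufs1 and Ndufab1 were on the siControl side at the 4-cell stage and on the siRif1 side at the 8-cell stage. The difference between the stages could not be tested.

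Ndufa8 and Ndufa2 were LAD in siRif1 8-cell embryos and in no other list, a pattern of 3.78% of all protein-coding genes. Ndufa8 (chromosome 2, 36036324 to 36049338), for an accessory subunit on the intermembrane side, was 1557.2 kb outside in siRif1 4-cell and 8257.2 kb outside in siControl 4-cell embryos. In 8-cell embryos it was 142.8 kb inside in siRif1 and 3157.2 kb outside in siControl embryos. It sits at the edge of its LAD of 1.4 Mb. The stretch (35900001 to 37300000) held 33 protein-coding genes, of which 27 were olfactory receptor genes, and the nearest were Morn5, the LIM homeobox gene Lhx6 and Rbm18.

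Ndufa2 (chromosome 18, 36742332 to 36744587), for a small accessory subunit of the NADH-binding module, was 2156.5 kb outside in siRif1 4-cell and 843.5 kb outside in siControl 4-cell embryos. In 8-cell embryos it was 143.5 kb inside in siRif1 and 2456.5 kb outside in siControl embryos. All 6 nearest neighbours, among them Tmco6, Cd14, a receptor gene of innate immunity, Ik, Wdr55 and the germ cell gene Dnd1, shared its pattern. The stretch of 1100.0 kb held 56 protein-coding genes, 36 of them clustered protocadherin genes. Both genes thus lay at the edge of LADs that also took in a large gene cluster.

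Ndufa4, assigned to complex IV, was LAD in every list but siControl 8-cell, a pattern of 1.52% of all protein-coding genes. It was 803.9 kb inside in both 4-cell lists, 396.1 kb inside in siRif1 8-cell and 1196.1 kb outside in siControl 8-cell embryos. It lies in a gene desert, with 1 other protein-coding gene within 500 kb. That gene, Phf14, shared its pattern.

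From the 4-cell to the 8-cell stage, the siControl lists gave no complex I gene LAD at the 8-cell stage alone, beside 10.9% of all protein-coding genes. LAD at the 4-cell stage alone were 6 genes (12.8%, all protein-coding genes 9.39%), namely Ndufs1, Ndufab1, Ndufa4, Ndufa5, Ndufb1 and Ndufb2. In siRif1 embryos 6 genes were LAD at the 8-cell stage alone (12.8%, all protein-coding genes 8.65%), namely Ndufs1, Ndufab1, Ndufa2, Ndufa8, Ndufa12 and Ndufb6. At the 4-cell stage alone only Ndufs4 was LAD (2.13%, all protein-coding genes 8.41%). These comparisons share lists with those between siRif1 and siControl embryos, so they restate the same 11 genes and give no separate evidence. Of these 11, 3 lie on chromosome 6, and without that chromosome the siControl stage comparison keeps 3 of its 6 genes.

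The percent of the 1 Mb around each midpoint that lay in LADs, a graded measure added after the data were examined, gave a similar order. It averaged 19.5% over the 47 genes in siRif1 4-cell, 26.8% in siControl 4-cell, 24.1% in siRif1 8-cell and 17.4% in siControl 8-cell embryos. Over all protein-coding genes the means were 25.9%, 25.0%, 25.6% and 28.5%. Between siRif1 and siControl the window differed for 16 of 47 genes at the 4-cell stage (6 higher and 10 lower in siRif1) and for 18 at the 8-cell stage (10 higher and 8 lower in siRif1). Over all protein-coding genes it was higher in siRif1 for 23.0% and lower for 21.9% at the 4-cell stage, and higher for 22.2% and lower for 27.5% at the 8-cell stage. The 10 genes lower at the 4-cell stage and the 10 higher at the 8-cell stage are therefore near the shares of all genes. The 6 higher at the 4-cell stage and the 8 lower at the 8-cell stage are below those shares.

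The LAD state of the 8 Ndufaf assembly factors was the same in all lists, while their distances to a border differed. Over all protein-coding genes the state differed between lists for 32.2%. The constancy was not shared by the 11 complex I assembly factors with other names, of which 5 (45.5%) differed and 0 were LAD in all 4. Ndufaf1, Ndufaf3, Ndufaf6 and Ndufaf8 were outside LADs throughout. Ndufaf5 (chromosome 2, 140170584 to 140218965), a hydroxylase that modifies NDUFS7, was 1505.2 kb inside a LAD in siRif1 4-cell, 894.8 kb in siControl 4-cell, 7394.8 kb in siRif1 8-cell and 1205.2 kb in siControl 8-cell embryos. The siRif1 8-cell LAD around it was 17.3 Mb long, and all 6 nearest neighbours, Ism1, Tasp1, Esf1, Sel1l2, Flrt3 and Macrod2, were LAD in all 4 lists. Ndufaf2 (chromosome 13, 108052589 to 108158652), a paralogue of Ndufa12 that acts late in assembly, was 1005.6 kb inside in siRif1 4-cell, 1705.6 kb in siControl 4-cell, 3105.6 kb in siRif1 8-cell and 1105.6 kb in siControl 8-cell embryos. The repair gene Ercc8, the fatty acid elongase gene Elovl7, Depdc1b, Smim15 and Zswim6 beside it were also LAD in all 4, and the other of its 6 nearest neighbours, Kif2a, was LAD in siControl 4-cell and siRif1 8-cell embryos alone.

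Ndufaf4 (chromosome 4, 24898083 to 24905001), which works with NDUFAF3 early in assembly, was 601.5 kb inside in siRif1 4-cell, 101.5 kb in siControl 4-cell, 1401.5 kb in siRif1 8-cell and 801.5 kb in siControl 8-cell embryos. Its neighbours were split, since Gpr63, Fhl5 and Ufl1 were LAD in all 4 lists while Mms22l and Klhl32 were outside LADs in siControl 4-cell embryos. Ndufaf7 (chromosome 17, 78937106 to 78948052), a methyltransferase needed for assembly, was 242.6 kb inside in siRif1 4-cell, 642.6 kb in siControl 4-cell, 442.6 kb in siRif1 8-cell and 842.6 kb in siControl 8-cell embryos. All 6 neighbours of Ndufaf7, among them Cebpz, Prkd3 and Qpct, shared its state. All 4 genes were more than 100 kb from a LAD border in every list.

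Upstream sequence was available for 40 of the 47 genes (RefSeq, GRCm38.p6). The 250 bases before the start that RefSeq's promoter table gives are shown for the 4 genes that were LAD in every list because these starts lay in LADs throughout. Ndufab1 is shown for its opposite states at the 4-cell and 8-cell stages, and Ndufs4 as the 1 complex I gene LAD in siRif1 4-cell embryos alone. Capitals mark CGCATGCG, the core of the site of nuclear respiratory factor 1 (NRF1). The ETS-type motif CCGGAAG has no match in these 6. For Ndufaf2, Ndufaf5 and Ndufaf7 that start lies inside the gene's outer bounds, so the sequence overlaps the first bases of the gene as annotated.
Ndufaf2 (chr13:108158626-108158875, minus strand): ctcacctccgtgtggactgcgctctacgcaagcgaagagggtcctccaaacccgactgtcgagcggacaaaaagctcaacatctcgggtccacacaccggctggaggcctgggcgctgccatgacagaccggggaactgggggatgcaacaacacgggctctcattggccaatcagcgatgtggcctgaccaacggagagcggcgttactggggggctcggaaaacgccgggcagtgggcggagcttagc
Ndufaf4 (chr4:24897833-24898082, plus strand): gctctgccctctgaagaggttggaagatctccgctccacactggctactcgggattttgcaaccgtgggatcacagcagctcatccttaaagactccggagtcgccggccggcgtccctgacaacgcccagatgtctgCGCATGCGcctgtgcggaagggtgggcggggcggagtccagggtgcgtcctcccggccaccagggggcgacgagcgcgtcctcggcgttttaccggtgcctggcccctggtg
Ndufaf5 (chr2:140170396-140170645, plus strand): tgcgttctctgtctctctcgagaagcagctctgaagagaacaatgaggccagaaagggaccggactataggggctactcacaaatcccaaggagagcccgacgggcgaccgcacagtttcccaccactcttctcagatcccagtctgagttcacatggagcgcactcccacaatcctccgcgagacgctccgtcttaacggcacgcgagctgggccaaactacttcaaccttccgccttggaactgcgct
Ndufaf7 (chr17:78936885-78937134, plus strand): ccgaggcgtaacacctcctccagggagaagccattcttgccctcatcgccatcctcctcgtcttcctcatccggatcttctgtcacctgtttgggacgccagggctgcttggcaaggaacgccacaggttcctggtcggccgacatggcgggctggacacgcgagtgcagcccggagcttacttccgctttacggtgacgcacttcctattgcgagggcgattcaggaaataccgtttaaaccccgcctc
Ndufab1 (chr7:122101849-122102098, minus strand): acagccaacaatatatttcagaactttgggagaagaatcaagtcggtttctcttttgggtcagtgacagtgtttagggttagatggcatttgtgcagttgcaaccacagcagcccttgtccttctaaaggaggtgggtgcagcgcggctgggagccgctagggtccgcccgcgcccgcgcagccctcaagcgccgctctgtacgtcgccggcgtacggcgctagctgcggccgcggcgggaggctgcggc
Ndufs4 (chr13:114388095-114388344, minus strand): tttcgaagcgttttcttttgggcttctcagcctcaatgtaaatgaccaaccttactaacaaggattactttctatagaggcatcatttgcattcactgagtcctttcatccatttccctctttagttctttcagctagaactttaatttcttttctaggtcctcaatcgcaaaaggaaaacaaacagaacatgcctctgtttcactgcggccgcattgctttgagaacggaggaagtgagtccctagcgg

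Both strands were searched, and the 2 motifs cannot overlap. CGCATGCG was found upstream of 3 of 40 complex I genes (7.50%), Ndufa8, Ndufa11 and Ndufaf4, and of 2.13% of 16457 protein-coding genes with such sequence. CCGGAAG was found for 5 of 40 (12.5%), Ndufaf1, Ndufaf8, Ndufb6, Ndufb7 and Ndufs3, and for 9.38% of all. CpG dinucleotides numbered 17 to 23 in the 4 constant LAD genes. The median was 17 over the 40 complex I genes and 10 over all protein-coding genes, with 7 for all protein-coding genes that were LAD in every list. Ndufs4 had 7 CpG dinucleotides and 42.0% GC, and Ndufab1 had 22 and 60.8%.

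Gene density followed the lamina state as it did for other genes. The number of other protein-coding genes within 500 kb of the midpoint had a median of 5 (5 to 12) for the 4 constant LAD genes, 9 (1 to 34) for the 11 that differed and 21.5 (6 to 58) for the 32 constantly outside. Over all protein-coding genes in these classes the medians were 7, 11 and 20. Ndufs7, a core gene on chromosome 10, had the densest surroundings with 58 genes. The 4 constant LAD genes had a median length of 29.7 kb (6.92 to 106.1), and the 32 constantly outside had a median of 7.13 kb (0.471 to 34.3). Over all protein-coding genes in these classes the median lengths were 27.7 kb and 15.8 kb.

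**Figure D4:**
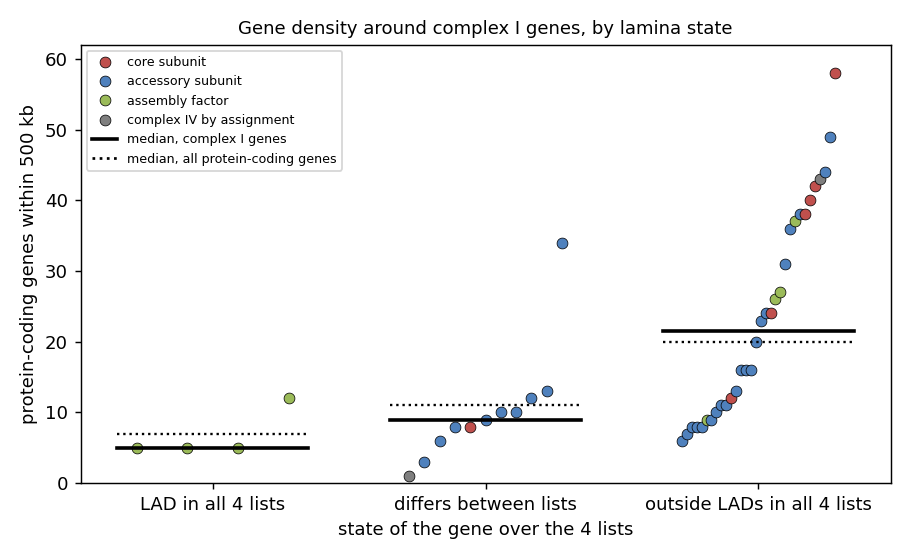
Number of protein-coding genes within 500 kb (y axis) of each complex I gene, for genes LAD in all 4 lists, differing between lists and outside LADs in all 4 lists, coloured by role, with medians of complex I genes (solid) and of all protein-coding genes in the same class (dotted). The 4 assembly factors on the left have 5 to 12 genes nearby, and Ndufa2 at 34 stands above the other genes that differed.

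Neighbours of the 11 genes that differed shared the exact pattern over the 4 lists in 38 of 66 cases (57.6%). For all 6628 protein-coding genes that differed, 57.9% of neighbours did. The states of these complex I genes were therefore shared with neighbouring genes about as often as elsewhere. Of the 32 genes outside LADs in all lists, those closest to a border in any list were Ndufc2 (3.90 kb in siRif1 4-cell), Ndufb10 (123.2 kb in siControl 8-cell) and Ndufb4b (133.3 kb in siRif1 4-cell). Ndufa10 was at the same distance, 1543.3 kb, from its nearest border in all 4 lists. Within 100 kb of a border were 3 of the 47 genes in siRif1 4-cell, 0 in siControl 4-cell, 2 in siRif1 8-cell and 1 in siControl 8-cell embryos, beside 8.07%, 9.24%, 9.19% and 9.69% of all protein-coding genes.

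Other nuclear genes of oxidative phosphorylation, 59 in 5 lists, were LAD in 11 cases (18.6%) in siRif1 4-cell, 12 (20.3%) in siControl 4-cell, 7 (11.9%) in siRif1 8-cell and 10 (16.9%) in siControl 8-cell embryos, beside 23.5%, 24.2%, 23.8% and 25.8% of all protein-coding genes. At the 4-cell stage 7.22% of all protein-coding genes were LAD in siRif1 alone and 7.92% in siControl alone. Of 11 complex I assembly factors with other names, none differed between siRif1 and siControl at that stage. At the 8-cell stage 0 were LAD in siRif1 alone (all protein-coding genes 7.18%) and 3 in siControl alone (27.3%, all protein-coding genes 9.18%), Nubpl, which delivers iron-sulfur clusters to complex I, and the neighbouring genes Tmem126a and Tmem126b on chromosome 7. Foxred1 was LAD in both 4-cell lists alone, and Dmac1 in both 8-cell lists alone. In the 4-cell lists Nubpl was only 4.36 kb inside a LAD in siRif1 embryos, against 504.4 kb inside in siControl embryos.

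Among the other complexes, the genes LAD in all 4 lists, picked out after their states were seen, were the complex II assembly gene Sdhaf3, the complex III core gene Uqcrc2 and the complex IV subunit gene Cox7a2. At the 4-cell stage Sdhd (complex II) and Cox6c (complex IV) were LAD in siRif1 alone, and Cox6a1 (complex IV), Atp5c1 and Atp5pb (ATP synthase) in siControl alone. At the 8-cell stage Cox7c, Atp5g2 and Atp5pb were LAD in siRif1 alone, and Sdhaf4, Atp5c1 and Atp5j in siControl alone. Atp5pb had the pattern of Ndufs1 and Ndufab1. Its midpoint was 51.0 kb inside a LAD in siRif1 8-cell and 49.0 kb outside one in siControl 8-cell embryos. Both values lie within 1 step of the 100 kb grid. None of the 9 complex III genes differed between lists, beside 32.2% of all protein-coding genes. Of the 59 genes in the 5 lists, 2 (3.39%) were LAD in siRif1 alone and 3 (5.08%) in siControl alone at the 4-cell stage. The shares of all protein-coding genes were 7.22% and 7.92%. At the 8-cell stage 3 (5.08%) were LAD in siRif1 alone and 6 (10.2%) in siControl alone, beside 7.18% and 9.18% of all protein-coding genes.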

How the data were processed

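The authors deposited 1 BED list of LADs for each of the 4 groups, made from all 3 replicates per the series' design text, with starts and ends on a 100 kb grid. Trimmomatic, Bowtie2, SAMtools and Picard with mm10 (GRCm38) are named in the submitters' processing notes without versions. How LADs were called is not stated there or in the labels, nor is any control for free Dam. A caller that depends on depth could alter what is called, and depth is unknown.

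Genes came from the RefSeq table of GRCm38.p6, leaving out 333 of 47042 entries of chromosomes 1 to 19 that follow a step back in position and belong to scaffolds. A gene was LAD where its midpoint lay in a LAD. Distances run to the nearest border, positive inside. Coordinates are 1-based. Neighbours are the 3 nearest protein-coding genes on each side by midpoint. Strand and start came from RefSeq promoter windows. All genes that differed or were LAD in all lists are described, with, of the others, the 3 nearest to and 3 farthest from a border. For the pathway lists, genes that differed are named, at most 5 per list. Of 62 listed pathway genes, 59 were found among the genes of these chromosomes. Members and lists were chosen with earlier results of these data known. The interval code was tested on simulated domains. Python 3.11.15, numpy 2.4.6 and pandas 2.3.3 were used. One complex I gene enters all counts but is not reported by name here. No p-value is given, because each group is 1 pooled list.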

Additional observations from a re-analysis of the deposited data

Results flagged for a closer look

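The difference between the siRif1 and siControl lists in complex I genes pointed in opposite directions at the 2 stages. The number of complex I genes in LADs, siRif1 minus siControl, was -6 at the 4-cell stage and 5 at the 8-cell stage. Of all protein-coding genes, 23.5% were in LADs in siRif1 and 24.2% in siControl embryos at the 4-cell stage, and 23.8% in siRif1 and 25.8% in siControl embryos at the 8-cell stage. With LADs extended by 100 kb at both ends, the 4-cell lists held 9 complex I genes in siRif1 and 12 in siControl embryos, and the 8-cell lists held 12 in siRif1 and 7 in siControl embryos. Each value compares single pooled lists, and the difference between the stages was not tested.

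Ndufab1 and Ndufs1 changed side between the stages. For Ndufab1 the signed distance to the LAD border, siRif1 minus siControl, was -2400.0 kb at the 4-cell stage and 3100.0 kb at the 8-cell stage. For Ndufs1 it was -1179.6 kb and 1179.6 kb in that order. These differences were not tested either.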

How the results depend on the processing

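No paired analysis was possible because each group is 1 list pooled over its replicates, and for the same reason no replicate could be left out. Of 189 recomputed values for the complex I counts, distances and neighbours, 176 stayed close to the reported value (counts within 1.5 times). Counts and percentages cannot be negative, so only the distance medians could change sign, and none did. Counting members closer than 500 kb as 1 locus merged only Ndufs8 and Ndufv1, both outside LADs throughout, so the LAD counts could not move. Keeping only genes between the first and last LAD could not remove a gene in a LAD either. With LADs only on the siControl side at the 8-cell stage, the count of 0 became 1 (Ndufa12) when the whole gene body or the transcription start (midpoint where no start was given) had to lie in a LAD, or when LADs were trimmed by 100 kb at both ends. With LADs extended by 100 kb, the genes LAD in siRif1 4-cell and not in siControl 4-cell embryos became 2, and those LAD in siRif1 4-cell and not in siRif1 8-cell embryos became 2, in both cases through Ndufc2. At the 4-cell stage it left 5 of the 7 genes LAD in siControl alone, without Ndufb1 and Ndufb6. Through Ndufb6, a subunit gene, the genes LAD in all 4 lists became 5. This extension also removed Ndufs1 from the genes that differ between the 8-cell lists and added Ndufb1, LAD in siRif1 alone. Without assembly factors, Ndufa4 and Ndufa4l2 the genes in LADs were 1, 7, 6 and 2 (siRif1 4-cell, siControl 4-cell, siRif1 8-cell, siControl 8-cell), with 0 in all 4, by construction. Median distance in the siControl 4-cell list was -669.2 kb with all LADs and -1352.0 kb with LADs of at least 300 kb. For 2 alternatives chosen after seeing the data, at least 50% of the surrounding 1 Mb in LADs gave 2 genes LAD in siRif1 4-cell and not in siRif1 8-cell embryos, and leaving out chromosome 6 gave 3 genes LAD in siControl 4-cell and not in siControl 8-cell embryos. With the 50% setting, Ndufa5 was the gene added. It also left the genes LAD in siControl 4-cell and not in siRif1 4-cell embryos, of which 6 remained. The constant LAD genes Ndufaf2, Ndufaf4, Ndufaf5 and Ndufaf7 were LAD in all 4 lists under every other placement and LAD setting run. The missing read depth and replicate spread limit every comparison.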
